A study of Mus musculus with 17 samples.

Results

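Dendritic cell identity genes were followed array by array in sorted mouse monocytes, to ask whether Ly6C+ monocytes of dendritic cell-depleted mice take them up. The set held 8 named genes, the transcription factors Batf3, Zbtb46, Tcf4 and Id2 and the surface molecules Dpp4, Xcr1, Clec9a and Cd209a. Each gene was read from 1 probe set that carries its symbol alone, the one with the highest mean, and 7 of the 8 had such a probe set among 22180 genes measured on the array. Clec9a shared its probe set with Clec1b, a C-type lectin of platelets, and is given only as that shared signal. With all arrays, Batf3 and Dpp4 rose in monocytes of depleted mice and Zbtb46, Xcr1, Id2, Tcf4 and Cd209a did not pass the test. Both rises depended on which control arrays were kept. Without 3 control arrays that carried progenitor, neutrophil and T cell genes, the differences were 0.54 for Batf3 and -0.20 for Dpp4. That fit has 1 control array left. Leaving out this array instead gave 1.96 and 1.23.

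Conventional dendritic cells arise from Flt3-dependent precursors and fall into cDC1, which cross-present antigen, and cDC2, which prime helper T cells. Batf3 pairs with Irf8 to maintain cDC1, whereas Zbtb46 marks the conventional lineage as a whole and Xcr1 and Clec9a are cDC1 surface receptors. Tcf4 directs plasmacytoid dendritic cell fate and is opposed by Id2, which binds E proteins and favours conventional cells. Dpp4 encodes the peptidase CD26 of cDC1, and Cd209a encodes a DC-SIGN family lectin found on cDC2 and on dendritic cells derived from monocytes.

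The 17 Affymetrix arrays covered 5 groups. PBS-Ly6C+ (4 arrays) and DT-Ly6C+ (4) were Ly6C+ monocytes sorted from the spleen of CD11c.DTR mice 48 h after 1 injection of PBS or of diphtheria toxin (DT). In these mice the Itgax (CD11c) promoter drives a toxin receptor fused to EGFP, in heterozygous and homozygous animals, so that the toxin removes cells expressing CD11c. G-CSF-Ly6C+ (3) were splenic Ly6C+ monocytes of wild-type mice given subcutaneous G-CSF for 5 days according to the methods. The labels name Flt3L, a dendritic cell growth factor, beside G-CSF. Ly6Cneg (3) were splenic Ly6Cneg monocytes, and cMoP (3) were common monocyte progenitors from the bone marrow of untreated mice. The labels give Ly6Cneg as PBS-injected. The paper describes both populations as sorted from C57BL/6 mice. Whether the comparison of Ly6Cneg with DT-Ly6C+ also crosses genotype is therefore not settled. By the same description, comparisons of cMoP with DT-Ly6C+ or PBS-Ly6C+ cross genotype as well as tissue. The labels gave all groups a C57BL/6 background and an age of 8 to 12 weeks, and cells came from individual or pooled mice. The splenic gate of PBS-Ly6C+, DT-Ly6C+ and Ly6Cneg took lineage-negative CD11b+CD115high cells with no exclusion on CD11c. For G-CSF-Ly6C+ the paper gives lineage-negative CD11b+Ly6C+ cells and does not name CD115. The array names carried 2 prefixes, G32 (8 arrays) and JS (9 arrays), and DT-Ly6C+ and PBS-Ly6C+ alone had arrays of both.

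The 4 PBS-Ly6C+ arrays were not alike. The PBS-Ly6C+ array G32-1 correlated at 0.974 to 0.976 with the DT-Ly6C+ JS arrays but at 0.919 to 0.923 with the 3 PBS-Ly6C+ JS arrays. The mean of 12 stem and progenitor markers was 9.97 to 10.02 in those 3 JS arrays and 9.79 to 9.97 in cMoP, against 5.88 in PBS-Ly6C+ G32-1 and 5.69 to 5.88 in DT-Ly6C+. Kit, the stem cell factor receptor, was at 11.04, 10.85 and 11.05 in the PBS-Ly6C+ JS arrays and at 5.82 in G32-1. Mpo, a granule enzyme of myeloid precursors, was at 12.23, 12.23 and 12.15 against 6.82. Kit was also high in Ly6Cneg (8.20 to 10.28), where Mpo was at 5.97 to 6.21. The mean of 12 neutrophil markers was 11.12 to 11.16 in the 3 JS arrays, 8.25 in G32-1 and 6.78 to 6.97 in cMoP, and that of 8 T cell markers was 6.58 to 6.87 against 5.31 in G32-1. The sorted antigens differed among themselves. Csf1r, which encodes the sorted antigen CD115, read 9.52, 9.50 and 9.47 there against 11.51 in G32-1 and 11.34 to 11.70 in DT-Ly6C+. Itgam, which encodes CD11b, was at 10.96, 10.88 and 10.96 against 11.06 in G32-1 and 6.79 on average in cMoP, and Ly6c2 at 11.38, 11.32 and 11.34 against 12.95. In these 3 arrays Itgam was thus near its G32-1 level and Ly6c2 was high but lower than in G32-1. The paper also gates neutrophils as CD11b+, so Itgam does not set monocytes apart from neutrophils. The neutrophil mean was also higher in the DT-Ly6C+ JS arrays (9.68, 9.51 and 9.72) than in DT-Ly6C+ G32-1 (8.41). Whether the 3 PBS-Ly6C+ JS arrays came from a pure monocyte sort was not tested. The members' differences from PBS-Ly6C+ that the results turn on are given with and without these 3 arrays. The part of the progenitor, neutrophil and T cell genes in the results was not tested. With bulk RNA a change in cell mixture and a change per cell cannot be told apart.

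The promoters of 3 members are shown because Batf3 and Dpp4 rose together in the pooled comparison while Zbtb46, the lineage factor, did not pass it. Each is the 250 bases before the RefSeq start on GRCm38.p6, for Batf3 on the plus strand at chr1:191098164-191098413, for Dpp4 on the minus strand at chr2:62412232-62412481 and for Zbtb46 on the minus strand at chr2:181424389-181424638. Capitals mark matches, on either strand, to AP-1 (TGANTCA), PU.1 (GAGGAA), IRF (AANNGAAA) and an E-box (CAGNTG).
Batf3: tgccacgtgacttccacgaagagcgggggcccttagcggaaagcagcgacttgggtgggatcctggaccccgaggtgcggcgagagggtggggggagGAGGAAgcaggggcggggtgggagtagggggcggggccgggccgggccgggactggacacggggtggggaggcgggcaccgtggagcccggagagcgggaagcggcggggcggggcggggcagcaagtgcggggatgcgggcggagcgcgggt
Dpp4: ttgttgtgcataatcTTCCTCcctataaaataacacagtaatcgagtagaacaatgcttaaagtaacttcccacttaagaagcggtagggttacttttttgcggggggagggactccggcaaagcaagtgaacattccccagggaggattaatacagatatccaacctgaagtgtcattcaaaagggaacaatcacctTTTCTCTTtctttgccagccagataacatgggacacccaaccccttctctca
Zbtb46: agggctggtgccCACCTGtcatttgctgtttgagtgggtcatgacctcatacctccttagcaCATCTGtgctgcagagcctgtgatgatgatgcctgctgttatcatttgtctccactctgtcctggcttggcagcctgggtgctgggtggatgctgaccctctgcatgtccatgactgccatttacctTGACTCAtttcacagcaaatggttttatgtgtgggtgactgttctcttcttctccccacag
Batf3 and Dpp4 each held 1 PU.1 match, a motif found in 23.3% of 32851 promoter windows of this length. Dpp4 also held 1 IRF match (21.3% of windows), and Zbtb46 held 1 AP-1 match (6.75%) and 2 E-boxes (44.8%). No matches overlapped, and a match is a run of letters, not a measured site. Promoters were found for 7 of the 8 members.

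Batf3 was the member that moved most in Ly6C+ monocytes. It stood at 8.61 (G32-1), 9.11, 8.84 and 8.55 in the DT-Ly6C+ arrays, on the log2 scale used for all levels, and at 8.07 (G32-1), 6.85, 7.35 and 6.43 in the PBS-Ly6C+ arrays. Every DT-Ly6C+ array was above every PBS-Ly6C+ array, and the highest control was G32-1. The fitted difference was 1.60 (SE 0.31, 95% interval 0.94 to 2.26), a 3.03-fold rise (limma, adjusted p = 0.00297). It was 1.96 without PBS-Ly6C+ G32-1 (adjusted p = 0.000233). Without the 3 PBS-Ly6C+ JS arrays it was 0.54 (95% interval -0.60 to 1.68) and the call was lost (adjusted p = 0.914). That fit has 1 control array and takes its spread from the other groups.

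The G-CSF-Ly6C+ arrays held Batf3 at 8.37, 8.28 and 8.00, below all DT-Ly6C+ arrays and overlapping PBS-Ly6C+ only through G32-1. The rise over PBS-Ly6C+ was 1.16 (SE 0.35, adjusted p = 0.0367, limma), and without the 3 PBS-Ly6C+ JS arrays the value was -0.08 (adjusted p = 0.989). This call was also lost in 8 of the other alternatives, among them the removal of any 1 of the 6 JS arrays compared (adjusted p = 0.0527 to 0.144). Ly6Cneg monocytes reached 10.07, 9.97 and 9.26, the top of the order, and cMoP lay at the bottom at 4.46, 5.74 and 5.61. From the top, neighbouring groups ran Ly6Cneg, DT-Ly6C+, G-CSF-Ly6C+, PBS-Ly6C+ and cMoP. The steps from Ly6Cneg to DT-Ly6C+ (adjusted p = 0.499) and from DT-Ly6C+ to G-CSF-Ly6C+ (adjusted p = 0.916) did not pass the limma test, and the step from PBS-Ly6C+ to cMoP did (2.27, adjusted p = 0.0016).

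Zbtb46 stayed low in every Ly6C+ group. Among all genes of an array it ranked at percentiles 40.2 to 58.2 in DT-Ly6C+ and 44.7 to 53.0 in PBS-Ly6C+. Such levels cannot be told from no expression. DT-Ly6C+ arrays had 5.23 (G32-1), 5.38, 5.69 and 6.05 and PBS-Ly6C+ arrays 5.53 (G32-1), 5.35, 5.43 and 5.81, so the groups overlapped throughout. The difference was 0.05 with a 95% interval of -0.44 to 0.55 (limma, adjusted p = 0.936), and -0.30 without the 3 PBS-Ly6C+ JS arrays. G-CSF-Ly6C+ lay at 5.84, 5.56 and 5.61 and cMoP at 5.46, 5.40 and 5.11. Only the Ly6Cneg arrays stood clear, at 7.02, 8.31 and 8.05. DT-Ly6C+ was 2.39 lower than Ly6Cneg (SE 0.32, 5.24-fold, limma adjusted p = 0.000141), and no pair among the 4 other groups passed this test.

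Id2 separated the progenitors from all splenic cells and did not pass the test between DT-Ly6C+ and PBS-Ly6C+. The 4 DT-Ly6C+ arrays had 9.13 (G32-1), 9.13, 9.25 and 9.05 and the 4 PBS-Ly6C+ arrays 9.21 (G32-1), 9.25, 9.12 and 9.33, giving -0.09 (95% interval -0.38 to 0.21, limma adjusted p = 0.802) and -0.08 without the 3 PBS-Ly6C+ JS arrays. The cMoP arrays were at 5.89, 6.00 and 6.27, and DT-Ly6C+ was 3.07 above them (SE 0.19, adjusted p = 1.42e-08). Levels in G-CSF-Ly6C+ were 8.80, 8.93 and 8.51, below every PBS-Ly6C+ array, with a difference of -0.48 (95% interval -0.81 to -0.16) at a limma adjusted p of 0.0502, and -0.48 (adjusted p = 0.783) without the 3 PBS-Ly6C+ JS arrays. Ly6Cneg had 9.95, 10.06 and 10.47, and DT-Ly6C+ lay 1.04 under it (SE 0.19, adjusted p = 0.00193). The order was Ly6Cneg, PBS-Ly6C+, DT-Ly6C+, G-CSF-Ly6C+ and cMoP, and among the 3 Ly6C+ groups no neighbours passed the test.

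Tcf4 spanned only 1.43 log2 units over all arrays, with overlapping groups. The DT-Ly6C+ arrays gave 7.77 (G32-1), 8.26, 8.18 and 8.36 and the PBS-Ly6C+ arrays 8.18 (G32-1), 7.13, 7.49 and 7.74. The pooled difference was 0.51 (95% interval -0.06 to 1.07, limma adjusted p = 0.281). Within JS every DT-Ly6C+ array was above every control, and without PBS-Ly6C+ G32-1 the difference was 0.81 (adjusted p = 0.0446). Within G32, and so without the 3 PBS-Ly6C+ JS arrays, the sign turned, to -0.41 for 1 array against 1 (adjusted p = 0.939). Values in the G-CSF-Ly6C+ arrays were 7.99, 8.31 and 8.26, those in Ly6Cneg 7.15, 7.83 and 8.13, and those in cMoP 7.81, 8.56 and 7.42. The groups ranked G-CSF-Ly6C+, DT-Ly6C+, cMoP, Ly6Cneg and PBS-Ly6C+, and no pair passed the limma test in the fit to all arrays.

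**Figure D1:**
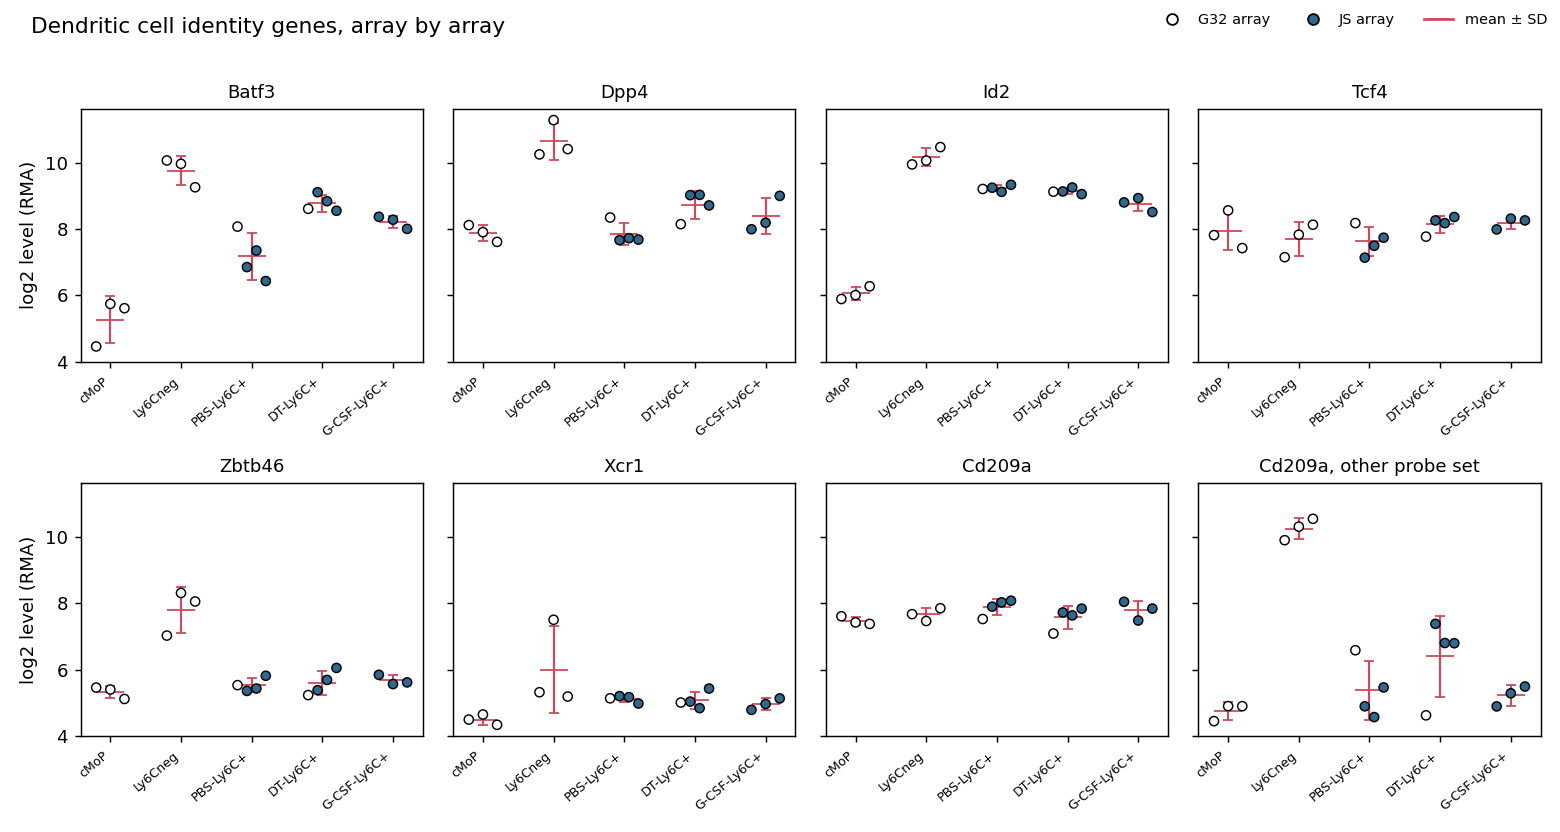
Log2 level (RMA) of each member in each array by group, with open points for G32 and filled points for JS arrays and red bars for the group mean and SD. Batf3 runs from 8.55 to 9.11 in DT-Ly6C+ and from 6.43 to 8.07 in PBS-Ly6C+, Zbtb46 stands out only in Ly6Cneg, and the 2 Cd209a probe sets differ in pattern.

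Dpp4 was the other member called. DT-Ly6C+ arrays stood at 8.15 (G32-1), 9.02, 9.03 and 8.71 and PBS-Ly6C+ arrays at 8.35 (G32-1), 7.66, 7.72 and 7.68. The groups overlapped through the G32 pair alone, where DT-Ly6C+ was 0.20 under PBS-Ly6C+. The pooled rise was 0.87 (SE 0.27, 95% interval 0.29 to 1.46, limma adjusted p = 0.048). The call was lost in 15 of 29 alternatives and turned sign in 1, and it was lost without any 1 of 12 arrays, 3 of cMoP and 2 of G-CSF-Ly6C+ among them (adjusted p = 0.0502 to 0.152). It reached 1.23 without PBS-Ly6C+ G32-1 (adjusted p = 0.00283) and -0.20 without the 3 PBS-Ly6C+ JS arrays (95% interval -1.27 to 0.87, adjusted p = 0.984). The DT effect in G32 and that in JS differed by -1.43, which did not pass the interaction test (adjusted p = 0.122).

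Ly6Cneg arrays carried far more Dpp4, at 10.25, 11.28 and 10.41, and DT-Ly6C+ was 1.97 lower (SE 0.38, 3.91-fold, limma adjusted p = 0.00286). That call was lost without DT-Ly6C+ G32-1 (-1.07, limma adjusted p = 0.145), a fit in which the PBS-Ly6C+ arrays alone set the series term. The DT-Ly6C+ JS arrays averaged 8.92 and Ly6Cneg 10.65. G-CSF-Ly6C+ gave 7.99, 8.19 and 8.9998 and cMoP 8.12, 7.90 and 7.61. The order was Ly6Cneg, DT-Ly6C+, G-CSF-Ly6C+, cMoP and PBS-Ly6C+, and after the drop from Ly6Cneg no neighbouring groups passed the test. Between cMoP and PBS-Ly6C+ the difference was 0.07.

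Xcr1, the receptor for the chemokine Xcl1, was below the array median in Ly6C+ monocytes. DT-Ly6C+ arrays lay at 5.004 (G32-1), 5.03, 4.83 and 5.43 and PBS-Ly6C+ arrays at 5.13 (G32-1), 5.20, 5.17 and 4.98. The difference of -0.04 had a 95% interval of -0.79 to 0.71 (limma, adjusted p = 0.965), and was -0.13 without the 3 PBS-Ly6C+ JS arrays. In DT-Ly6C+ it ranked at the 33.6th to 46.1st percentile of all genes in an array. G-CSF-Ly6C+ had 4.78, 4.96 and 5.13 and cMoP 4.49, 4.64 and 4.33. One Ly6Cneg array, G32-new, was at 7.50 and the others at 5.32 and 5.19, so the Ly6Cneg mean of 6.00 ± 1.30 (SD, n = 3) was set by that array. Only the pair of Ly6Cneg and cMoP, the ends of the order, passed the test (1.51, adjusted p = 0.00925), and neighbouring groups did not.

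The Cd209a probe set fixed by the rule was flat, between 7.09 and 8.08 over all 17 arrays. It read 7.09 (G32-1), 7.72, 7.63 and 7.84 in DT-Ly6C+ and 7.52 (G32-1), 7.90, 8.03 and 8.08 in PBS-Ly6C+ (difference -0.31, limma adjusted p = 0.157; -0.44 without the 3 PBS-Ly6C+ JS arrays). Its 3 other groups stayed inside that range and no pair of groups passed the test. A second probe set of Cd209a, lower on average and chosen after its values were seen, spanned far more. It gave 4.62 (G32-1), 7.38, 6.80 and 6.79 in DT-Ly6C+ and 6.58 (G32-1), 4.89, 4.57 and 5.46 in PBS-Ly6C+. The JS arrays were thus higher after DT and the G32 pair ran the opposite way, and the pooled 1.02 (SE 0.48) did not pass the limma test (adjusted p = 0.216). With G-CSF the second probe set stayed at 4.89, 5.28 and 5.49, and in cMoP at 4.44, 4.90 and 4.89. Ly6Cneg arrays reached 9.90, 10.31 and 10.55, and DT-Ly6C+ was 4.14 lower (adjusted p = 0.000692).

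The probe set shared by Clec9a and Clec1b stood at 4.93 (G32-1), 5.70, 5.58 and 5.48 in DT-Ly6C+ and at 5.30 (G32-1), 5.88, 5.78 and 6.60 in PBS-Ly6C+. The difference of -0.47 did not pass the limma test (adjusted p = 0.689). G-CSF-Ly6C+ arrays had 4.88, 4.98 and 6.10 and cMoP arrays 5.29, 5.09 and 5.08. Ly6Cneg spread from 6.47 through 8.20 to 10.22, with G32-new at the top as for Xcr1, and DT-Ly6C+ was 3.42 lower (adjusted p = 0.00534). Which of the 2 genes gave the signal cannot be told apart.

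Across the 7 measured members, 2 rose and 0 fell in DT-Ly6C+ against PBS-Ly6C+, where 6.75% of all genes rose and 5.74% fell (limma, adjusted p under 0.05). At an unadjusted p under 0.05, 2 were higher and 1 was lower. The members' median difference was 0.05, against 0.01 for all genes. Without the 3 PBS-Ly6C+ JS arrays 0 members were called and 0 passed at an unadjusted p under 0.05, and of all 22180 genes 2 rose and 0 fell, with 1136 higher and 568 lower at an unadjusted p under 0.05. In G-CSF-Ly6C+ against PBS-Ly6C+ 1 member rose (Batf3) and 0 fell, with 1 lower at an unadjusted p under 0.05 (Id2), beside 6.28% and 6.22% of all genes. Both comparisons share the PBS-Ly6C+ arrays.

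Between G-CSF-Ly6C+ and DT-Ly6C+ 0 members were called in limma and 0% of all genes rose or fell. At an unadjusted p under 0.05, 1 member (Id2, -0.40) passed, and of all genes 879 were higher and 458 lower in G-CSF-Ly6C+. The 95% intervals of the difference ran from -1.17 to 0.30 for Batf3 and from -0.52 to 0.58 for Zbtb46, with every DT-Ly6C+ array above every G-CSF-Ly6C+ array for Batf3. Against Ly6Cneg, 3 members were lower in DT-Ly6C+ (Zbtb46, Id2 and Dpp4) and 0 were higher, where 3.39% of all genes were lower and 7.42% higher. At an unadjusted p under 0.05 Cd209a (-0.51) was lower too, and 0 members were higher. Against cMoP, 2 were higher (Batf3 and Id2) and 0 lower in either reading, beside 11.9% and 13.7% of genes. Ly6Cneg exceeded cMoP in 5 members (Zbtb46, Xcr1, Batf3, Id2 and Dpp4) and fell below it in 0, also at an unadjusted p, while 11.9% of all genes rose and 18.4% fell.

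**Figure D2:**
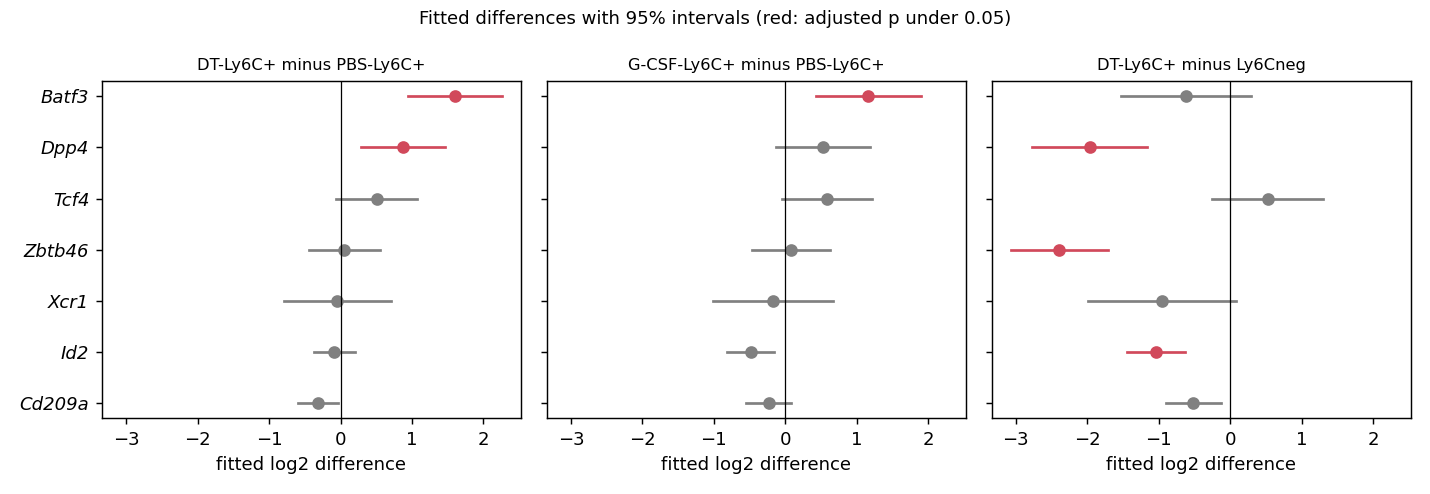
Fitted log2 difference of each member (points) with its 95% interval (lines) in 3 comparisons over all arrays, red where the adjusted p was under 0.05. Against PBS-Ly6C+, Batf3 (1.60) and Dpp4 (0.87) are red after DT and Batf3 (1.16) after G-CSF, and against Ly6Cneg the red members Zbtb46, Dpp4 and Id2 lie below 0.

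The wider dendritic cell program was followed in related gene lists. In DT-Ly6C+ against PBS-Ly6C+ 6.75% of all genes rose and 5.74% fell. Of 18 pan-cDC genes 2 rose and 1 fell, with a median of 0.24 against 0.01 for all genes. Btla, an inhibitory receptor, rose by 1.21 (SE 0.23, limma adjusted p = 0.00262) and Kmo, an enzyme of tryptophan breakdown, by 0.76 (adjusted p = 0.007). Spint2, a protease inhibitor, fell by 1.64 (adjusted p = 0.000722). Itgax itself stood at 6.70 (G32-1), 7.55, 7.56 and 7.09 in DT-Ly6C+ and at 5.78 (G32-1), 7.97, 7.67 and 7.75 in PBS-Ly6C+, and Flt3, the receptor on dendritic cell precursors, at 6.99 to 7.76 and 6.98 to 7.60. The DT-Ly6C+ and PBS-Ly6C+ arrays overlapped in Itgax and Flt3 but not in Btla, Kmo or Spint2.

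Among 13 cDC1 genes 2 rose and 3 fell, beside 6.75% and 5.74% of all genes, with a median of -0.32. Naaa, a lysosomal amidase, rose by 1.29 (SE 0.29, limma adjusted p = 0.00724) and Irf8, the partner of Batf3, by 1.27 (SE 0.22, adjusted p = 0.00164). Clnk, a signalling adaptor, fell by 1.51 (adjusted p = 0.00124) and Cd24a, a surface glycoprotein also high on immature blood cells, by 1.49 (adjusted p = 0.048). Of 11 cDC2 genes 4 rose and 0 fell, with 1 lower at an unadjusted p under 0.05, and the median was 0.24. Irf4, which directs cDC2 and monocyte-derived dendritic cells, rose by 2.06 (SE 0.35, adjusted p = 0.00129), from 5.74, 5.28 and 4.93 in the PBS-Ly6C+ JS arrays to 7.41 to 8.19 in DT-Ly6C+, although PBS-Ly6C+ G32-1 was already at 7.47. Clec10a, a galactose lectin, rose by 0.94, Rbpj, the effector of Notch signals, by 0.78 and Sirpa by 0.44.

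Of 12 monocyte-derived dendritic cell genes 6 rose and 0 fell, also at an unadjusted p, with a median of 0.80. Of all genes 6.75% rose and 5.74% fell. Fcgr1, Ccr2 and Cd14 of this list are also on the monocyte marker list used below. Not passed were Mrc1 (-0.32), Fcer1a (-0.72), Pdcd1lg2 (-0.16), Ccl17 (0.34), Ccl22 (0.24) and Cd14 (0.56). Fcgr1, which encodes CD64 and by which the study describes these monocytes, rose by 2.60 (SE 0.39, limma adjusted p = 0.000722). It read 6.86, 6.48 and 6.71 in the PBS-Ly6C+ JS arrays but 9.80 in G32-1, beside 9.94 to 10.24 in DT-Ly6C+. The costimulatory genes Cd40 and Cd80 rose by 1.76 and 1.66 and the maturation marker Cd83 by 1.60. Of 17 pDC genes 5 rose and 5 fell, with a median of -0.39. Pld4 (2.68) and the nucleic acid sensors Tlr7 (2.43) and Tlr9 (2.27), which monocytes also express, rose, and Klra17 fell by 2.40. Of 18 partner regulators 5 rose and 1 fell, with a median of 0.36, led by Irf4, Irf8, Id3 (0.96), an inhibitor of E proteins like Id2, and Nfil3 (0.80), a factor needed for cDC1.

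Without the 3 PBS-Ly6C+ JS arrays none of these 6 lists held a called gene (limma), and at an unadjusted p under 0.05 the counts of higher and lower genes were 4 and 0 of 18 pan-cDC, 1 and 0 of 13 cDC1, 0 and 0 of 11 cDC2, 1 and 1 of 17 pDC, 0 and 0 of 12 monocyte-derived dendritic cell genes and 2 and 0 of 18 partner regulators. The list medians were then -0.01, -0.09, 0.08, -0.06, -0.05 and -0.01 in the same order, beside -0.01 for all genes. Without PBS-Ly6C+ G32-1 the called counts were 3 and 3, 2 and 4, 6 and 0, 5 and 5, 6 and 0 and 9 and 2 in the same order, in a fit where 2099 of 22180 genes rose (9.46%) and 2220 fell (10%). The fit without the 3 PBS-Ly6C+ JS arrays has 1 control array, so an absence of calls in it is not a test of the lists. The lists were chosen with these data known and their counts are descriptions.

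**Figure D3:**
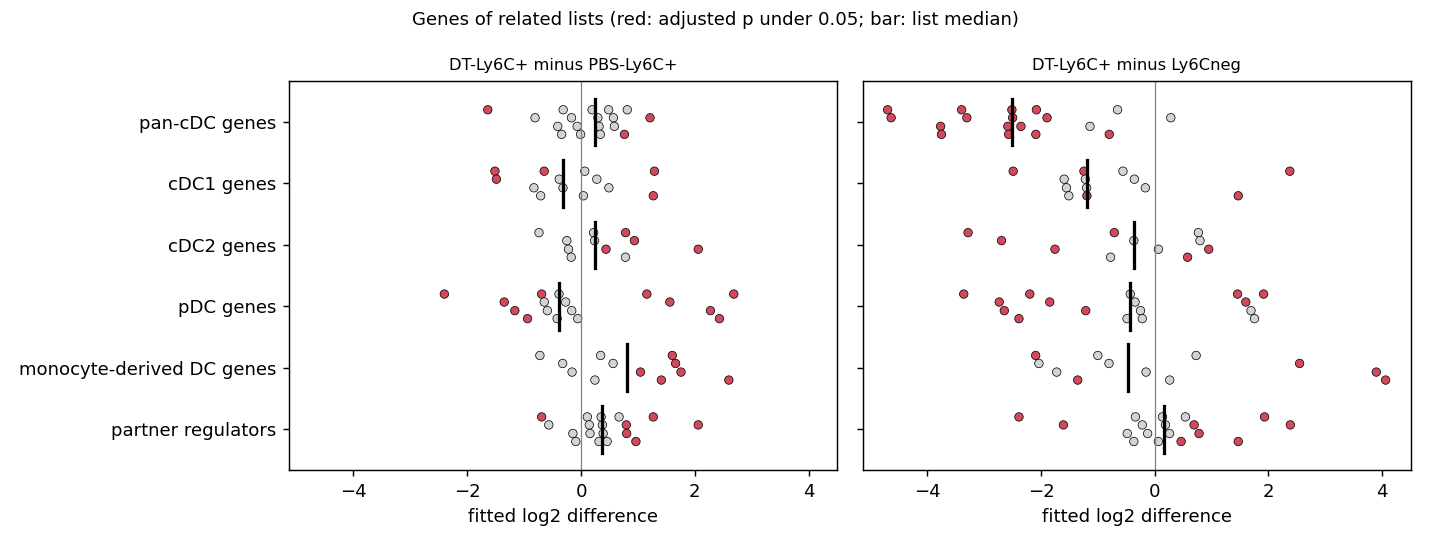
Fitted log2 difference of each gene of 6 related lists (points, red where the adjusted p was under 0.05) with the list median (bar), for DT-Ly6C+ minus PBS-Ly6C+ and minus Ly6Cneg. Against PBS-Ly6C+ the medians lie between -0.39 and 0.80, and against Ly6Cneg that of the pan-cDC genes lies at -2.50.

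Against Ly6Cneg the pan-cDC genes were lower in DT-Ly6C+ for 15 of 18, with 0 higher also at an unadjusted p. Their median was -2.50 against 0.02 for all genes, of which 3.39% were lower and 7.42% higher. Itgax was at 10.55, 11.30 and 10.84 in the Ly6Cneg arrays, a mean of 10.90 against 7.23 in DT-Ly6C+. In the fit DT-Ly6C+ was 4.70 lower (SE 0.30, limma adjusted p = 9.06e-08). The fitted value carries the series term, which the PBS-Ly6C+ and DT-Ly6C+ arrays set. Without the 3 PBS-Ly6C+ JS arrays the pan-cDC median against Ly6Cneg was -2.55. H2-Aa, an MHC class II chain, lay between 12.27 and 12.67 in Ly6Cneg and between 9.45 and 10.56 in DT-Ly6C+. The Ly6Cneg arrays did not hold monocyte genes alone. In them 9 NK cell markers averaged 5.98 to 8.16 against 5.21 to 6.03 in DT-Ly6C+. For 9 B cell markers the means were 5.56 to 7.12 against 4.87 to 5.22, and for 10 red pulp macrophage markers 6.98 to 9.67 against 7.02 to 7.35. The mean over 10 monocyte markers was 8.75 to 9.51 against 10.92 to 10.96. That list holds Ly6c2 (8.11 against 12.99 on average), which the Ly6Cneg gate selects against, so its lower mean is not a measure of purity. Nr4a1 of the same list averaged 12.52 against 12.50. Ncr1, an NK cell receptor, was at 8.27, 4.91 and 7.61 and Vcam1 of red pulp macrophages at 10.41, 6.04 and 9.58, so the array G32-new, highest for Xcr1, the shared Clec9a probe set and Zbtb46, was the lowest for both. The part of these cell types in the members' levels was not tested.

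**Figure D4:**
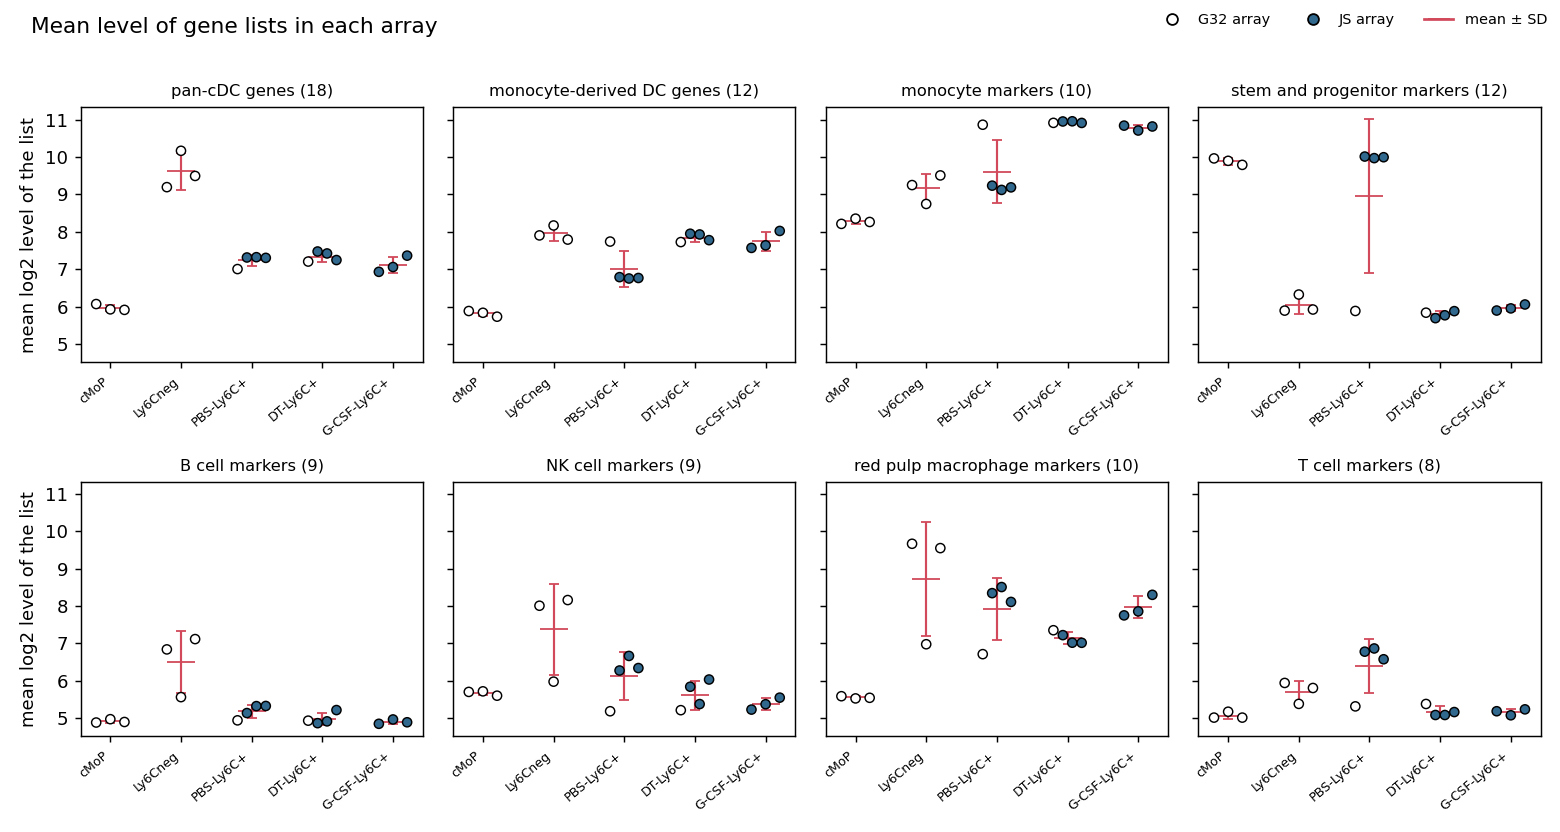
Mean log2 level of 8 gene lists (number of genes in brackets) in each array by group, open points for G32 and filled for JS arrays, red bars for mean and SD. The pan-cDC mean is 9.20 to 10.17 in Ly6Cneg and 6.93 to 7.47 in the Ly6C+ groups, and the 3 PBS-Ly6C+ JS arrays lie with cMoP in stem and progenitor markers.

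The remaining marker lists were read in DT-Ly6C+ against PBS-Ly6C+, where 5.74% of all genes fell and 6.75% rose. Of 8 T cell markers 6 fell and 0 rose in limma, also at an unadjusted p (list mean 5.08 to 5.38 against 5.31 to 6.87). All 12 stem and progenitor markers fell, with a median of -3.55, as did 4 of 12 neutrophil markers (8.41 to 9.72 against 8.25 to 11.16), 3 of 6 erythroid (5.23 to 5.49 against 5.66 to 6.07), 2 of 5 platelet (5.15 to 5.59 against 5.62 to 6.64), 2 of 10 red pulp macrophage and 1 of 9 NK cell markers. Of these, 1 red pulp macrophage and 1 NK cell marker rose, and 8 of 10 monocyte markers rose while 0 of 9 B cell markers were called, with 1 lower at an unadjusted p. Without the 3 PBS-Ly6C+ JS arrays 0 genes of any marker list were called in limma, and the median was -0.09 for stem and progenitor, 0.17 for neutrophil, -0.10 for T cell and 0.04 for monocyte markers. At an unadjusted p under 0.05, 1 NK cell marker was then higher and 1 monocyte marker lower. The highest and lowest markers by mean level were Cd2 (6.94) and Themis (3.83) for T cells, Nkg7 (8.70) and Klre1 (4.81) for NK cells, Cd79b (7.99) and Ms4a1 (4.32) for B cells, S100a8 (11.76) and Ly6g (5.99) for neutrophils, Mpo (8.73) and Gata2 (5.82) for progenitors, Tfrc (7.24) and Gata1 (4.94) for erythroid cells, Hmox1 (9.97) and Cd5l (4.91) for red pulp macrophages, Pf4 (6.19) and Ppbp (4.83) for platelets and Lyz2 (12.19) and Ly6c1 (4.46) for monocytes. These are log2 levels of different probe sets and are not compared with each other.

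Some members shared their profile over the 17 arrays, a description that rests on the same arrays and mostly on the Ly6Cneg and cMoP ends. Zbtb46 and Dpp4 correlated at 0.90, Batf3 and Id2 at 0.85 and Zbtb46 and Xcr1 at 0.73, whereas Tcf4 did not follow any member beyond -0.12. Over all genes, those most like Batf3 were Hes1 (0.97), a Notch target, Irf4 (0.96) and Slc46a3 (0.96). Hes1 read 8.38 (G32-1), 8.12, 8.07 and 7.82 in DT-Ly6C+ and 7.84 (G32-1), 6.37, 6.61 and 6.42 in PBS-Ly6C+, so its G32-1 control also lay nearer to DT-Ly6C+ than to the other controls. Those most like Id2 were Tspan13 (0.98), Bhlhe40 (0.97) and Dusp5 (0.96), and those most like Dpp4 were Cxcl16 (0.96), Klri2 (0.96) and St8sia6 (0.95). For Zbtb46 they were Gm4956 (0.96), the MHC class II gene H2-Eb2 (0.96) and Adam23 (0.96), and for Xcr1 Cd200r3 (0.93), Dnase2b (0.92) and Apol7c (0.92).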

How the data were processed

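The log2 values were deposited by the authors, who normalised Affymetrix MoGene 2.0 arrays with oligo's RMA method (version not given in the sources used here), and array medians lay between 5.31 and 5.53. The number of arrays limits the precision. Of 41345 probe sets, 23521 carried 1 gene symbol, 1820 several and 16004 were not in the annotation used; identifiers of 23328 matched the reference gene table. The single-symbol probe set with the highest mean was kept for each of 22180 genes. R 4.3.3 with limma 3.58.1 fitted group and array series (G32 or JS) to all 17 arrays (11 residual degrees of freedom), with moderated tests Benjamini-Hochberg adjustment over all genes and a threshold of 0.05. Groups of 1 series are compared with the others through DT-Ly6C+ and PBS-Ly6C+. PBS-Ly6C+ G32-1 and the 3 PBS-Ly6C+ JS arrays thus also bear on those differences. The labels do not tie arrays to mice, so p-values measure the spread between arrays. The members and gene lists were chosen with earlier results of these data known. Named were all members, up to 4 called genes of each related list with the largest DT-Ly6C+ minus PBS-Ly6C+ difference, the highest and lowest marker of each list, and for members spanning over 2 log2 units the 3 genes most alike; Itgax, Flt3, H2-Aa, Kit, Csf1r, Itgam, Ly6c2, Ncr1, Vcam1 and Hes1 levels were added after values were seen. Sequences and motif shares came from the RefSeq promoter table (GRCm38.p6). The fit was tested on simulated data. Alternatives were no series term, a random or replicate block, subsets of arrays, a filter on dim genes, quantile normalization, mean probe sets, array weights, a trended prior, each array left out and, chosen after seeing the data, the other Cd209a probe set and leaving out the 3 PBS-Ly6C+ JS arrays. Figures were drawn with Python 3.11.15 and matplotlib 3.10.9.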

Additional observations from a re-analysis of the deposited data

Results flagged for a closer look

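Dpp4 in PBS-Ly6C+ G32-1 (8.35) lay apart from the other 3 PBS-Ly6C+ arrays, the nearest of which was at 7.72, a gap of 0.915 of the group's range. Chance takes about 1 of 20 groups past the limit used for such gaps. The second Cd209a probe set, outside the fixed choice of probe sets, was 3.32 higher in the lowest Ly6Cneg array than in the highest PBS-Ly6C+ array.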

How the results depend on the processing

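Of 1197 values of single members under an alternative, 1139 kept their direction, where called, and their side of the threshold, 29 lost the call, 27 gained one and 2 called values turned sign. Those 2 were Dpp4 in DT-Ly6C+ minus PBS-Ly6C+ (-0.20) and Batf3 in G-CSF-Ly6C+ minus PBS-Ly6C+ (-0.079), both on leaving out the 3 PBS-Ly6C+ JS arrays, where the members that rose numbered 0 in both comparisons. In DT-Ly6C+ minus PBS-Ly6C+ 1 member rose with no series term, with the arrays of the 2 groups alone and after quantile normalization (Dpp4 adjusted p = 0.0531, 0.0557 and 0.0814), and 1 to 3 rose with single arrays left out. Dpp4 was lost without any of the 3 DT-Ly6C+ JS or 3 PBS-Ly6C+ JS arrays (adjusted p = 0.0985 to 0.152), any cMoP array (0.056 to 0.0621), Ly6Cneg G32-pool (0.0519) or G-CSF-Ly6C+ JS-1 or JS-2 (0.0502 and 0.0591). In G-CSF-Ly6C+ minus PBS-Ly6C+ the count that rose was 0 with no series term or a random block, 2 with only the 2 groups, 3 in JS alone and 0 to 1 with single arrays left out, and Batf3 was lost without any of the 6 JS arrays compared (adjusted p = 0.0527 to 0.144). The count that fell there was 1 (Id2) in JS alone, without dim genes, with mean probe sets and after quantile normalization, and 0 to 1 with single arrays left out. Array numbers did not pair the JS arrays (correlation of deviations 0.000123 to 0.0895), and with array number as a replicate block 2 members rose and 1 fell for G-CSF-Ly6C+. Id2 in DT-Ly6C+ minus Ly6Cneg was lost with only those 2 groups (adjusted p = 0.0619) and in G32 alone (0.0841), Xcr1 in Ly6Cneg minus cMoP in the same fits (0.0866). Without Ly6Cneg G32-new, Xcr1 in DT-Ly6C+ minus cMoP passed (0.0416). Dpp4 in DT-Ly6C+ minus cMoP passed with no series term (0.0406) and without DT-Ly6C+ G32-1 (1.70, 0.0096). Cd209a in Ly6Cneg minus cMoP passed with mean probe sets, quantile normalization or the other probe set. The causes were not tested. Levels near the array median, as for Xcr1 and for Zbtb46 in the Ly6C+ groups, cannot be told from no expression.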
